A study of Mus musculus with 6 samples.

Results

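The genes described here are 10 transcription factors of the endocardial cushions and of the valve mesenchyme that forms from them: Sox9, Twist1, Snai1, Snai2, Zeb2, Msx1, Msx2, Prrx1, Prrx2 and Meox1. They were taken by gene symbol from the 19933 genes that the array measured under 1 symbol, and each of the 10 had 1 transcript cluster, the unit that the array reports. The samples were mouse hearts at E12.5, labelled knockout for β1 integrin (KO, 3 samples) or wild type (WT, 3 samples), and each was measured on 1 Affymetrix Mouse Gene 1.0 ST array to look for transcript differences before the mutant heart shows overt dysfunction. The labels name neither the allele, the Cre or promoter, the cells that lost the gene, the strain nor the sex of the embryos. Nor do they state if several hearts were pooled. A sample is called a heart here, and all p-values rest on the spread between samples, which may be partly technical.

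The cushions are swellings of matrix between endocardium and myocardium in the atrioventricular canal and the outflow tract. Endocardial cells there loosen their junctions and enter the matrix as mesenchyme, a step called epithelial-to-mesenchymal transition (EMT), which BMP, TGFβ and Notch signals from myocardium and endocardium drive. Snail, Twist and ZEB family factors are known to repress cadherin genes and other junction genes in such transitions, Msx factors act downstream of BMP in the atrioventricular cushions, and Sox9 and the paired-related factors mark the proliferating mesenchyme that later builds valves and septa. At E12.5 the first transition is largely past and the mesenchyme is expanding.

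Values are log2 RMA signals, so that a difference of 1 is a 2-fold difference. Array medians lay between 6.65 and 6.71. The signal of the targeted gene Itgb1, the β1 integrin chain, was 11.53, 11.42 and 11.65 in KO hearts, against 11.76, 11.80 and 11.78 in WT hearts. This is a difference of -0.25 ± 0.09 (SE; limma, adjusted p = 0.797), with all KO hearts below all WT hearts. The position of its probes relative to the deleted part is not given in the sources used here, so this does not check the labels. Cardiomyocyte markers, 10 of 10 measured, had mean levels from 10.37 to 14.23, so markers of the labelled tissue were present. In whole hearts, fewer cells of a type and less RNA per cell cannot be told apart.

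Promoter sequences from RefSeq (GRCm38.p6) were at hand for 7 of the 10 genes, all but Sox9, Snai2 and Meox1. The windows of 4 genes are shown because they contrast genes whose signal differed widely between hearts (Twist1, Prrx1) with genes whose signal differed less (Snai1, Prrx2). Each is the 250 bases before the annotated start, 5′ to 3′ on the gene's strand, and capitals mark matches to the 6 motifs searched on both strands: CANNTG, the E-box of Twist, Snail and ZEB factors; its form CAGGTG, which overlaps it; CAGAC, a SMAD-type element; GGCGCC, a GC-rich element of BMP SMADs; GTGGGAA, an RBPJ element; and TAATTA, a homeodomain core. The windows are chr12:33957421-33957670 on the plus strand for Twist1, chr1:163313651-163313900 on the minus strand for Prrx1, chr2:167537945-167538194 on the plus strand for Snai1 and chr2:30845117-30845366 on the plus strand for Prrx2.
Twist1: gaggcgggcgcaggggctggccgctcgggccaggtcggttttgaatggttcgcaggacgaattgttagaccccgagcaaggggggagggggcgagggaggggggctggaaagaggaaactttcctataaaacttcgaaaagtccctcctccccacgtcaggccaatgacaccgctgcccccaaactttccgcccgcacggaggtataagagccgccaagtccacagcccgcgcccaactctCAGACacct
Prrx1: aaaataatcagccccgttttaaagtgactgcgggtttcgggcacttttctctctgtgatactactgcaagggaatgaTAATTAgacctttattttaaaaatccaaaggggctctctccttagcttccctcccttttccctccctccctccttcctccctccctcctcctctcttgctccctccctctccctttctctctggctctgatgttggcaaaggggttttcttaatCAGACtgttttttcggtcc
Snai1: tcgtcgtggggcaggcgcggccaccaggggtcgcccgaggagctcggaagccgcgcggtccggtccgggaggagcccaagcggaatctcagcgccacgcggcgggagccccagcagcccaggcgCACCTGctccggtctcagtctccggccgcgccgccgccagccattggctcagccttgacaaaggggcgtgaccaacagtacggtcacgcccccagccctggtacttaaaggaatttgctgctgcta
Prrx2: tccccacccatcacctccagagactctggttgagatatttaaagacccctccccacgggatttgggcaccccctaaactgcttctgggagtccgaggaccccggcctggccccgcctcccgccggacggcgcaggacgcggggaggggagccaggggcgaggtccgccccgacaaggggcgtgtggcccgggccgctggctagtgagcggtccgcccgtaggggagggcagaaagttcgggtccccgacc
Twist1 and Prrx1 each held 1 CAGAC match near the start, an element present in 42.2% of all 32851 promoter windows of this length. Prrx1 also held 1 TAATTA match, which 4.84% of windows hold, as did Msx2. The Snai1 window held 1 CAGGTG match, printed as its complement CACCTG. Msx1 also held 1, and 17.2% of windows do. Any E-box form was found in 3 of the 7 genes (Snai1, Msx1 and Msx2), against 66.2% of windows. GTGGGAA and GGCGCC were found in 0 of the 7, against 5.42% and 9.59% of windows. The windows of Snai1 and Prrx2 were 70.0% G or C, that of Twist1 62.4% and that of Prrx1 47.6%, beside a median of 52.4% over all windows. These matches describe letters in these windows and nothing about binding.

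None of the 10 factors passed the test of KO against WT hearts. By limma with Benjamini-Hochberg adjustment over all 28767 clusters, their adjusted p-values ran from 0.797 to 0.951. Across the array 0 clusters, or 0%, passed. At an unadjusted p under 0.05 there were 0 of the 10 factors, against 4.98% of all named genes. Without WT replicate 3 there were 3, Meox1, Twist1 and Msx1, against 4.92%. That heart was the highest WT heart in all 10 factors, so leaving it out favours a higher KO mean. The 4.92% is not a like share, since 18.6% of named genes have WT replicate 3 highest and WT replicate 2 lowest. The count of 3 is a description. In 8 of the 10 the mean was higher in KO hearts and in 2, Snai2 and Prrx2, it was lower, while the difference lay above 0 for 44.0% of named genes. The median difference of the 10 was 0.15, beside -0.02 over all named genes. For 0 of the 10 did the KO hearts lie wholly above or below the WT hearts, against 12.1% of named genes. The exact two-sided permutation p of each gene lay between 0.2 and 0.8, where 3 hearts against 3 cannot go below 0.1.

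**Figure D1:**
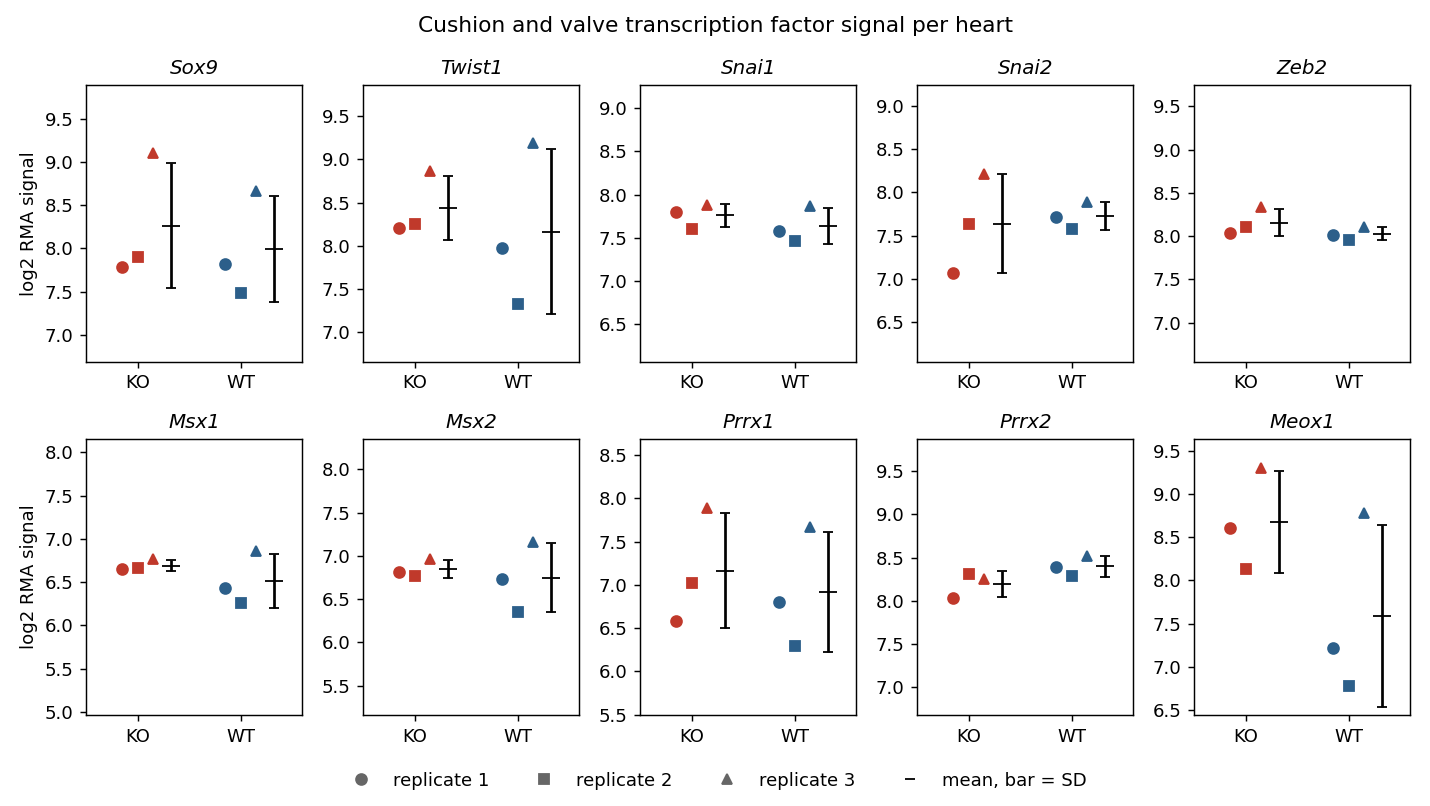
Log2 RMA signal (vertical axis, each panel spanning the same number of log2 units) of the 10 factors in 3 KO hearts (red, left) and 3 WT hearts (blue, right), with the group mean and SD as a bar. Replicate 3 is the highest WT heart in all 10 panels and the highest KO heart in 9, and the groups overlap in every panel.

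Among the factors of the transition itself, Snai1, the Snail repressor of cadherin genes, had 7.79, 7.61 and 7.88 in KO hearts, against 7.58, 7.46 and 7.87 in WT hearts. The groups overlapped, and the difference was 0.12 ± 0.13 (SE), with a 95% confidence interval from -0.18 to 0.42. Snai2, its paralog Slug, had 7.07, 7.63 and 8.21 in KO hearts, against 7.71, 7.58 and 7.89 in WT hearts. The KO hearts spread on both sides of the WT hearts, with the lowest and the highest value of the 6, and the difference was -0.09 ± 0.26 (interval -0.69 to 0.52). Twist1, a basic helix-loop-helix factor that promotes proliferation and migration of cushion mesenchyme, had 8.20, 8.25 and 8.87 in KO hearts, against 7.98, 7.33 and 9.19 in WT hearts. The WT hearts alone spanned 3.65-fold, from the lowest to the highest value of all 6 hearts. The difference was 0.27 ± 0.43 (interval -0.74 to 1.28). Zeb2, a zinc finger homeodomain repressor of cadherin genes, had 8.03, 8.10 and 8.34 in KO hearts, against 8.02, 7.96 and 8.11 in WT hearts. It varied least of the 10, with a difference of 0.13 ± 0.10 (interval -0.12 to 0.37).

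Sox9, which is needed for expansion of cushion mesenchyme and activates cartilage-type collagen genes, had 7.79, 7.91 and 9.10 in KO hearts, against 7.82, 7.48 and 8.67 in WT hearts. In each group 1 heart, replicate 3, stood more than 0.8 above the others. The difference was 0.27 ± 0.40 (SE; interval -0.67 to 1.21). Msx1, a homeodomain factor induced by BMP signals, had 6.65, 6.66 and 6.77 in KO hearts, against 6.43, 6.26 and 6.86 in WT hearts. The KO hearts lay close together between the 2 lower WT hearts and the highest one, and the difference was 0.18 ± 0.15 (interval -0.18 to 0.53). Msx2, which acts redundantly with Msx1 in the atrioventricular cushions, had 6.82, 6.76 and 6.96 in KO hearts, against 6.73, 6.36 and 7.16 in WT hearts. Its KO hearts again lay within the span of the WT hearts, at a difference of 0.10 ± 0.19 (interval -0.34 to 0.54).

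Prrx1, a paired-related homeodomain factor of embryonic mesenchyme, had 6.59, 7.02 and 7.89 in KO hearts, against 6.80, 6.30 and 7.67 in WT hearts. Both groups ranged over more than 2-fold and overlapped almost wholly, with a difference of 0.24 ± 0.41 (SE; interval -0.71 to 1.20). Prrx2, its paralog, had 8.03, 8.31 and 8.25 in KO hearts, against 8.40, 8.28 and 8.52 in WT hearts. Only KO replicate 2 and WT replicate 2 kept the groups from separating. The difference was -0.20 ± 0.11 (interval -0.46 to 0.05; limma, adjusted p = 0.797). Meox1, a homeodomain factor best known from somites that is also expressed in cushion mesenchyme, had 8.60, 8.13 and 9.30 in KO hearts, against 7.22, 6.78 and 8.78 in WT hearts. It had the widest difference of the 10, at 1.08 ± 0.51, or 2.12-fold, and 2 of 3 WT hearts lay far below all KO hearts while WT replicate 3 lay above 2 of them. The interval ran from -0.10 to 2.27, the adjusted p was 0.797 (limma) and the exact two-sided permutation p was 0.3.

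**Figure D2:**
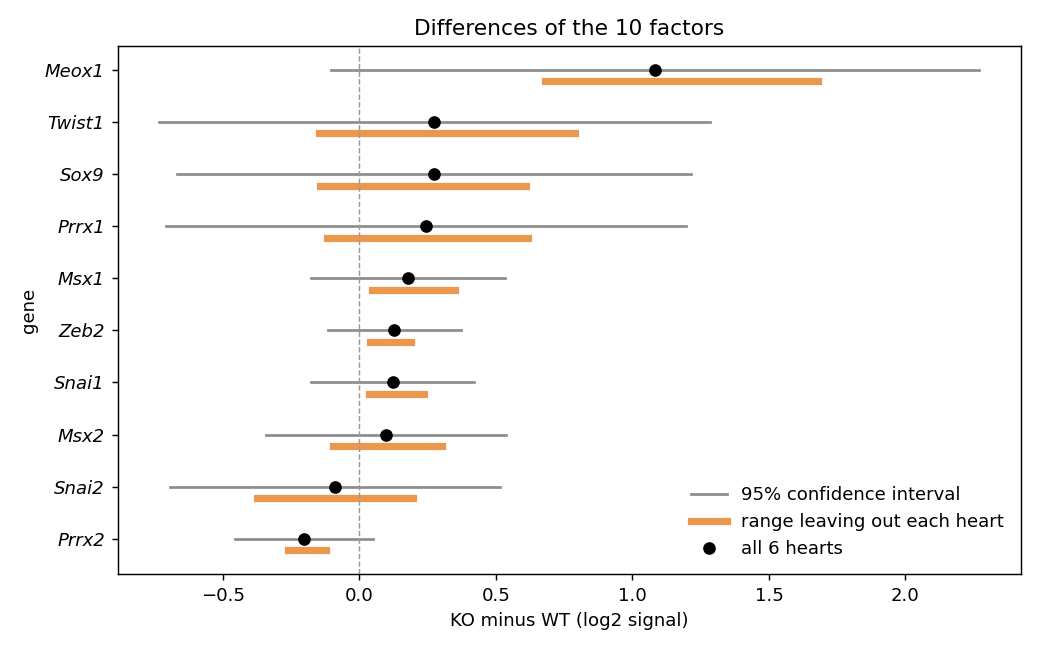
KO minus WT difference in log2 signal (horizontal axis) for each factor (vertical axis), with its 95% confidence interval in grey and, in orange, the range of the difference when each heart is left out in turn. All 10 intervals include 0, and the orange range crosses 0 for Sox9, Twist1, Snai2, Msx2 and Prrx1.

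The median range among the 3 hearts was 0.48 in KO hearts and 0.70 in WT hearts, while the median size of the KO minus WT difference was 0.19. The range within WT hearts exceeded the group difference for 10 of 10 factors, as for 76.7% of named genes. The range within KO hearts did so for 9 of 10, the exception being Msx1, as for 88.0% of named genes. A range of 3 values exceeds a difference of means in most genes, so these counts do not set the factors apart.

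The within-group SD of Meox1 was 0.85, of Twist1 0.72, of Prrx1 0.68, of Sox9 0.67, of Snai2 0.42 and of Msx2 0.29. These 6 lay in the most variable 10% of named genes, and the median SD of all named genes was 0.13. Zeb2 (0.12) and Prrx2 (0.13) varied about as much as the median gene.

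Within its group, each WT heart held the same rank in every factor, and the KO hearts took a similar order in most. Among WT hearts, replicate 3 was the highest and replicate 2 the lowest in 10 of 10 factors, an order found in 18.6% of named genes. Among KO hearts, replicate 3 was the highest in 9 of 10, against 32.4% of named genes, and Prrx2 was the exception. KO replicate 1 was the lowest KO heart in 7 of 10. The mean of the 10 factors was 7.56, 7.64 and 8.16 in KO hearts, against 7.47, 7.18 and 8.07 in WT hearts. The difference of 0.21 between the group means was smaller than the SD among KO hearts (0.33) and among WT hearts (0.46).

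Genes of the cushion matrix moved with the factors from heart to heart. This list holds 20 genes, all measured, such as Postn, Vcan, Lum, Fbln2 and the fibrillar collagens. Its mean was 9.31, 9.38 and 9.93 in KO hearts, against 9.22, 9.01 and 9.71 in WT hearts, so that the 6 hearts had the same order from low to high as for the factors. Of the 20 genes, 14 had WT replicate 3 highest and WT replicate 2 lowest, and 13 of those also had KO replicate 3 highest, a combination found in 5.65% of named genes and in 9 of the 10 factors. It was also found in 15 of 28 other cushion transcription factors and in 10 of 30 genes of the inducing signals. Whether the hearts differed in the amount of cushion tissue was not tested. When the matrix mean of the same heart was subtracted, the mean difference of the 10 factors was -0.01 in place of 0.21. Of the 10, 4 were then higher in KO hearts. The subtraction lowers the difference of every gene by the same 0.22, the difference of the matrix mean itself. The median difference of the whole array became -0.23, so the 4 of 10 has no like share beside it. The matrix list was chosen with earlier results known, so values on this shifted scale are a description. On that scale Meox1 stood at 0.86, Sox9 and Twist1 at 0.05 and Prrx1 at 0.02. Snai1 stood at -0.10, Zeb2 at -0.09, Msx1 at -0.05, Msx2 at -0.12, Snai2 at -0.31 and Prrx2 at -0.43.

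**Figure D3:**
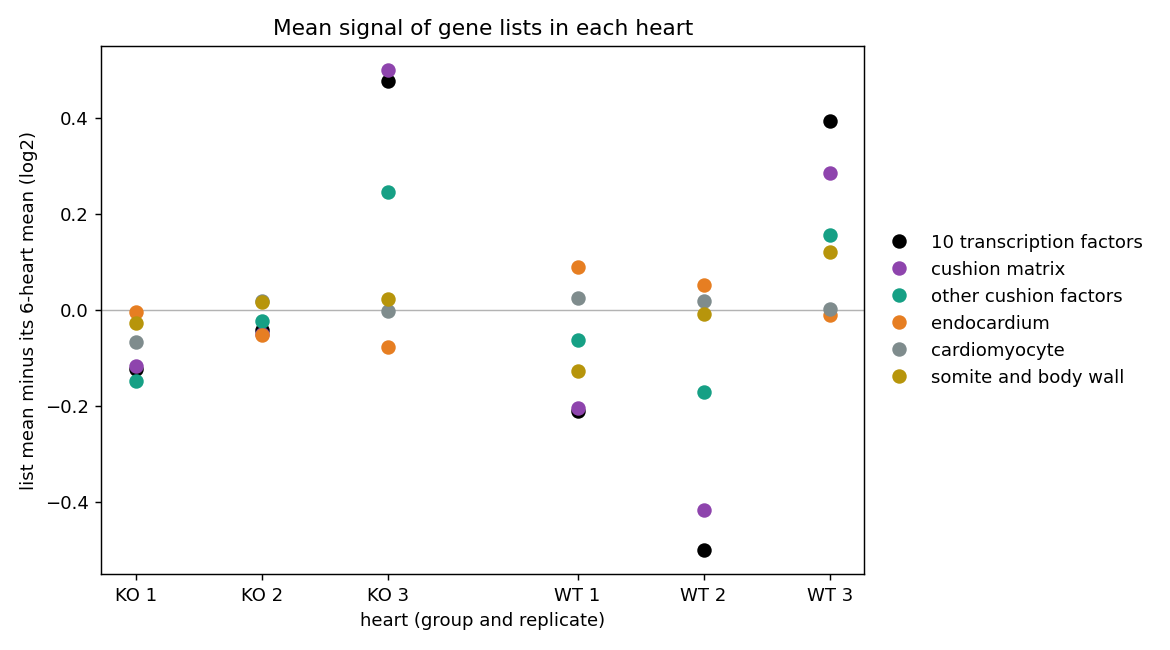
Mean log2 signal of 6 gene lists in each heart (horizontal axis, KO hearts on the left), relative to the list's own mean over the 6 hearts (vertical axis). The 10 transcription factors (black) and the cushion matrix genes (purple) are highest in KO replicate 3 and WT replicate 3 and lowest in WT replicate 2, while the cardiomyocyte mean stays within 0.1 of its own average.

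Of the other cell types, the 8 smooth muscle markers had a similar order, with means of 8.87, 8.67 and 9.20 in KO hearts, against 8.69, 8.48 and 8.83 in WT hearts, and 3 of the 8 had WT replicate 3 highest, WT replicate 2 lowest and KO replicate 3 highest. The same order was found in 2 of 10 cardiomyocyte and 2 of 12 endocardial genes, but not in the means of those lists. The cardiomyocyte mean was 12.40, 12.49 and 12.47 in KO hearts, against 12.49, 12.49 and 12.47 in WT hearts. The endocardium list, 12 genes, was 9.54, 9.49 and 9.46 in KO hearts, against 9.63, 9.59 and 9.53 in WT hearts. Its 4 higher and 8 lower genes had a median difference of -0.10. The 10 somite and body wall markers had means of 5.79, 5.84 and 5.84 in KO hearts, against 5.69, 5.81 and 5.94 in WT hearts. The 10 measured erythroid genes were high in KO replicate 1, at 9.80, beside 8.28 and 8.44 in the other KO hearts and 8.64, 8.57 and 8.13 in WT hearts. The part of these cell types in the differences was not tested. The 8 macrophage markers had means of 6.86, 7.08 and 6.98 in KO hearts, against 6.71, 6.69 and 6.66 in WT hearts. The 10 epicardial markers had 8.77, 8.47 and 8.58 in KO hearts, against 8.50, 8.49 and 8.53 in WT hearts. Of 6 neural crest and glia genes 4 were measured, with means between 6.94 and 7.18 in the 6 hearts.

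The comparison was recomputed without each heart in turn. Without WT replicate 3, 6 of the 10 factors (Meox1, Twist1, Msx1, Msx2, Snai1 and Zeb2) had all KO hearts above both remaining WT hearts. This was so for 11.1% of named genes, and for 23.0% of those in which, as in all 10 factors, WT replicate 3 was the highest and WT replicate 2 the lowest WT heart. Leaving out the highest WT heart of every factor favours such a separation, so the count is given as a description. Meox1 then differed by 1.68, Twist1 by 0.79, Msx1 by 0.35 and the mean of the 10 by 0.46. The adjusted p of these 3 genes was 0.832 (limma), and 0 factors passed. Without WT replicate 2 the mean difference of the 10 was 0.01, without KO replicate 3 it was 0.02, and in the first case 5 of 10 factors were higher. Meox1 kept a positive difference in each of these fits, from 0.68 without WT replicate 2 to 1.68. Prrx2 kept a negative one, from -0.26 to -0.12. Its KO hearts lay wholly below the WT hearts without KO replicate 2 (as did 14.2% of named genes) or without WT replicate 2 (11.6%). Only these 2 hearts had kept the Prrx2 groups from separating, so leaving out either fixed this outcome. The shares are over genes not chosen for that property, so this too is a description.

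Meox1 was set against the other 9 factors within each heart, a scale chosen after its values were seen. Relative to its WT mean, this ratio was 1.14, 0.53 and 1.25 in KO hearts, against -0.30, -0.46 and 0.76 in WT hearts. KO replicate 2 thus lay below WT replicate 3, and the groups overlapped on this scale too, at a mean difference of 0.97.

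The set holds 3 pairs of paralogs, whose differences were compared within hearts. The log2 ratio of Prrx1 to Prrx2 shifted by 0.45 in KO hearts relative to WT hearts, with SDs of 0.58 in both groups (exact two-sided permutation p = 0.4). The Snai1 to Snai2 ratio shifted by 0.21, with an SD of 0.54 in KO hearts and 0.06 in WT hearts (exact p = 0.7). KO replicate 1 alone stood at 0.81 above the WT mean of that ratio, where the other KO hearts stood at 0.07 and -0.25. The Msx1 to Msx2 ratio shifted by 0.08, with SDs of 0.05 and 0.12 (exact p = 0.4). Over these 3 comparisons, none separated the groups.

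Other genes of the cushion pathway were counted by role, and 0 of them passed limma's adjusted test in any list. Of 30 genes of the inducing signals, 22 were higher and 8 lower in KO hearts, with a median difference of 0.13. In 7 of them all KO hearts lay above all WT hearts, against 4.95% of named genes, and in 1 all lay below, against 7.18%. The lowest p belonged to Hey1, a transcriptional target of Notch that helps to set the boundary of the atrioventricular canal. It had 7.66, 7.40 and 7.56 in KO hearts, against 7.25, 7.20 and 7.27 in WT hearts, a difference of 0.30 ± 0.09 (SE; limma, adjusted p = 0.797). The Notch target Heyl differed by 0.31 ± 0.14 and Rbpj, the DNA-binding partner of Notch, by 0.20 ± 0.09, both again with no overlap. The rest of the 7 were BMP and TGFβ signalling genes: Tgfb1 (0.30), Bmpr1a (0.19), Smad4 (0.11) and Bmpr2 (0.06). The remaining BMP and TGFβ genes of the list overlapped between groups, some higher and some lower in KO hearts. The other Notch genes of the list overlapped between groups, with differences of 0.20 for Dll4, 0.19 for Jag1, 0.16 for Hey2 and 0.01 for Notch1. Tgfb3, a TGFβ ligand of the cushions, had 8.41, 8.18 and 8.58 in KO hearts, against 7.96, 7.72 and 8.18 in WT hearts, a difference of 0.43 ± 0.15 in which KO replicate 2 equalled WT replicate 3.

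Of 28 other transcription factors of cushions and valves, 19 were higher and 9 lower in KO hearts, with a median difference of 0.05. In 1 of them, Zeb1, all KO hearts lay above all WT hearts, against 4.95% of named genes. In 3, Klf2, Foxc1 and Hand2, all lay below, against 7.18%. For both directions together the share of named genes was 12.1%, so these counts do not set the list apart. Klf2, a flow-responsive endocardial factor, had 8.11, 8.29 and 8.17 in KO hearts, against 8.41, 8.37 and 8.54 in WT hearts, a difference of -0.25 ± 0.09 (SE; limma, adjusted p = 0.797) with no overlap. Zeb1, the paralog of Zeb2, had 9.68, 9.42 and 9.51 in KO hearts, against 9.34, 9.29 and 9.36 in WT hearts, a difference of 0.20 ± 0.09 with no overlap. Gata6, a zinc finger factor of the cardiac lineages, differed by 0.22 ± 0.11 with overlap. Foxc1, a forkhead factor of outflow tract and cushion mesenchyme, differed by -0.17 ± 0.09 with no overlap. Of the other paralogs of the 10 factors, Twist2 differed by 0.03, Snai3 by -0.13 and Meox2 by 0.22, all with overlap between groups.

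Of the 20 cushion matrix genes, 17 were higher and 3 lower in KO hearts, with a median difference of 0.16 and overlap between the groups in all 20. Postn had the lowest p of the list and differed by 0.77 ± 0.35 (SE; limma, adjusted p = 0.797). Lum, the proteoglycan lumican, had 7.58, 8.10 and 9.44 in KO hearts, against 7.44, 6.28 and 8.51 in WT hearts. Mmp2, a gelatinase, differed by 0.29 ± 0.16. Col2a1, a cartilage collagen gene that Sox9 is known to activate, had 8.34, 8.50 and 8.60 in KO hearts, against 8.75, 8.46 and 9.08 in WT hearts. Its difference was -0.28 ± 0.16. Other cartilage-type matrix genes of the list were named after their values were seen. They differed by 0.16 ± 0.33 for Col9a1, 0.06 ± 0.12 for Col11a1, 0.14 ± 0.11 for Acan and -0.03 ± 0.35 for Hapln1, all with overlap between groups. Acan was the dimmest gene of the list, at a mean level of 5.38. Of 12 junction and mesenchyme genes, among them cadherins that Snail and ZEB factors repress, 8 were higher and 4 lower, at a median of 0.11. Fn1 (fibronectin) differed by 0.14 ± 0.08, Vim (vimentin) by 0.11 ± 0.08 and the junction gene Tjp1 by 0.10 ± 0.08. In these 3 all KO hearts lay above all WT hearts, against 4.95% of named genes. In 0 of the 12 all lay below, against 7.18%. Cdh11, Acta2 and Cdh2 differed by -0.19, -0.05 and 0.01, all with overlap between groups. The epithelial genes Cdh1 (E-cadherin) and Ocln (occludin) were dim, at 5.71 and 5.59 in KO hearts, against 5.57 and 5.43 in WT hearts.

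**Figure D4:**
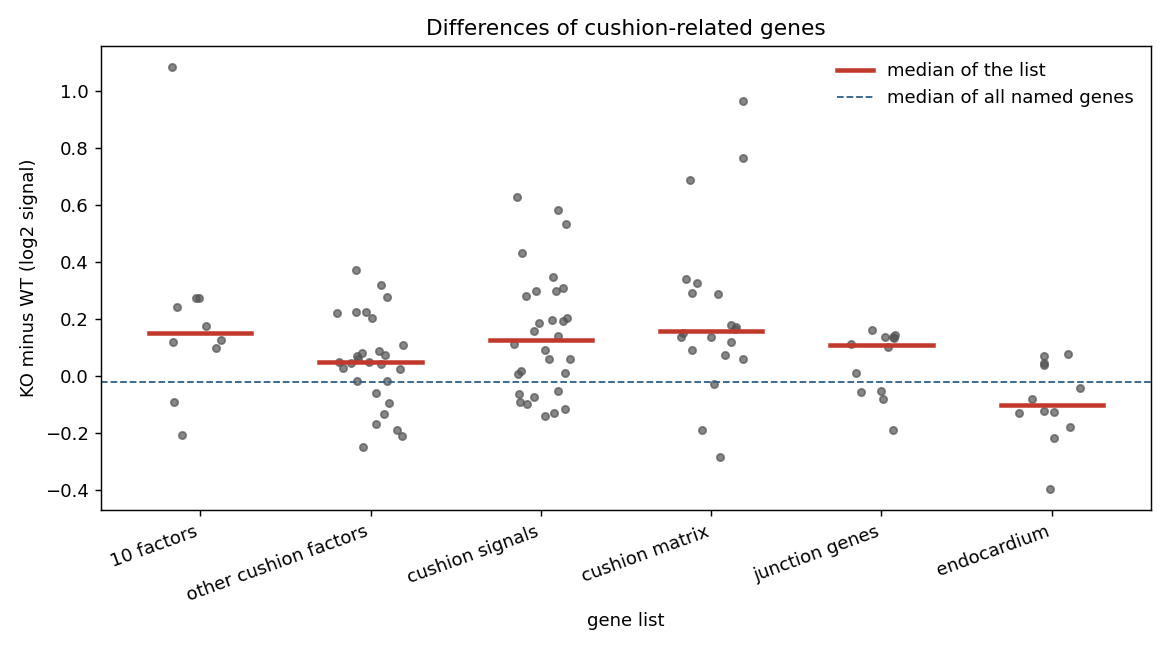
KO minus WT difference in log2 signal (vertical axis) of every measured gene in 6 lists (horizontal axis), with the list median in red and the median of all named genes as a dashed line. The medians of the 10 factors, the inducing signals and the matrix genes lie at 0.15, 0.13 and 0.16, and that of the endocardial genes at -0.10.

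The genes whose heart-to-heart pattern lay closest to the factors were found by the root-mean-square distance between profiles, each centred on its own mean over the 6 hearts. This is a description over 6 hearts and says nothing of control or function. Closest to the mean of the 10 factors were Vegfd, an angiogenic growth factor gene (distance 0.05 log2 units), the α-catenin gene Ctnna2 (0.07) and the Hedgehog effector gene Gli3 (0.07). Vegfd had 7.38, 7.50 and 7.88 in KO hearts, against 7.19, 6.93 and 7.82 in WT hearts. Closest to Sox9 were Prrx1 (0.12), the matrix gene Fbln2 (0.13) and Dnm3os (0.14), a non-coding RNA gene. Closest to Twist1 were the netrin receptor gene Unc5c (0.13), the secreted protease gene Htra1 (0.18) and the adhesion molecule gene Clmp (0.20). Closest to Meox1, at larger distances, were the matrix genes Cthrc1 (0.26) and Tnc (0.27) and the axon guidance receptor gene Robo2 (0.31). Tnc had 8.93, 8.04 and 9.41 in KO hearts, against 7.43, 6.82 and 8.27 in WT hearts.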

How the data were processed

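RNA of 3 KO and 3 WT hearts was extracted with Trizol and biotin-labelled, per the labels. The authors deposited log2 signals from RMA, per the submitters' processing notes. RMA corrects background, equalises array distributions and combines a cluster's probes, and it compresses differences of dim clusters. The sources used here do not give its version, the probe annotation or the genome build, and scanner signals were not used here.

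The platform annotation gave 1 symbol for 21776 of 28767 clusters. Of these, 21686 were matched by Entrez identifier to RefSeq (GRCm38.p6), whose symbol was then used. The brightest cluster per gene was kept, leaving 19933 named genes. KO minus WT differences come from limma 3.58.1 (R 4.3.3, lmFit and eBayes) over all clusters, unfiltered and two-sided, with Benjamini-Hochberg adjustment and a threshold of 0.05. Exact permutation tests of single values used scipy 1.17.1. On simulated data of 19933 genes the fit called 53.7% of 1.5-fold, 89.6% of 2-fold and 93.9% of 3-fold changes. The changes were placed among genes at or above the median level, and 9 unchanged genes were called. Simulated hearts were independent, and each gene kept its own SD. Most genes varied less than the 6 factors in the most variable 10%, so these shares do not hold for those 6.

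The 10 genes and all lists were chosen with earlier results of these data known. Named are the 10 factors, Itgb1, up to 4 genes per pathway list by lowest p, and the 3 closest profiles of the mean and of the 3 widest-ranging factors. Vcan, Fbln2 as a list example, Col9a1, Col11a1, Acan, Hapln1, Twist2, Snai3 and Meox2 fall outside this rule. So do Tjp1, Cdh11, Acta2, Cdh2, Hand2, Hey2, Jag1, Dll4, Notch1, Tgfb1, Bmpr1a, Smad4 and Bmpr2, named after their values were seen. Same-numbered KO and WT hearts deviated from their group means with correlations of -0.06, 0.03 and -0.01, so the numbers were not treated as pairs. Alternatives were 3 renormalizations, other variance models and weights, a replicate block, other sets of clusters, a fold minimum, subtraction of the matrix mean and leaving out each heart.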

Additional observations from a re-analysis of the deposited data

How the results depend on the processing

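In no alternative did any of the 10 factors pass the test, with adjusted p-values from 0.408 (Meox1 with array weights) to 0.999. Of 131 recomputed differences of single factors, 121 kept their sign and 10 did not. Subtracting the matrix mean turned the sign for Snai1 (-0.10), Zeb2 (-0.0944), Msx1 (-0.0464) and Msx2 (-0.12) and left 4 of 10 factors higher in KO hearts. The other 6 arose by leaving out a heart: Sox9 ranged from -0.14 to 0.61, Twist1 from -0.15 to 0.79, Snai2 from -0.38 to 0.19, Msx2 from -0.10 to 0.30 and Prrx1 from -0.12 to 0.62. Over the same fits 5 to 9 factors were higher, 0 to 6 did not overlap, 0 to 3 had an unadjusted p under 0.05 and 0 to 1 clusters of the whole array passed. The cause of these changes was not tested. With a replicate block, which no label supports, Meox1 stood at 1.08 and 0 factors passed. There 1 factor, Meox1, had an unadjusted p under 0.05, as did 810 of 19933 named genes. With the matrix mean subtracted, Meox1 had one as well, as did 131 of 19933. On that scale all 10 factors had the same SE of 0.33, so this p did not rest on the spread of Meox1 itself, whose SE was 0.51 without subtraction. The whole array was shifted there too, to a median difference of -0.23. Renormalization and array weights changed no sign. The other variance model and the replicate block leave each difference as it was, so they could not change a sign, though they count among the 121. Meox1 without the mean of the other 9 factors was 0.97, an alternative chosen after seeing the data. Msx1 lay under the median level and was not tested with the filter on dim clusters. No gene had another cluster to try, and signal over background was not used here.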
